A study of Mus musculus with 50 samples.

Results

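Colons of mice given A1007 at 90 mpk were compared with colons of mice given A1007 at 10 mpk, both after TNBS. The 20 mice were picked by the titles of their count columns, 10 for each dose, out of 50 mice in the series. All are BALB/c mice (BALBC in the labels), and 1 library of poly(A) RNA was made from the colon of each. TNBS (trinitrobenzene sulfonic acid) is a hapten that provokes colitis, and A1007, named YUQ-A1007 in the series text, activates the aryl hydrocarbon receptor (AhR) according to that text and is enriched in the gut. The unit mpk is printed as the labels give it. Both groups therefore carry TNBS and A1007, and only the dose differs by label. Reference levels come from the other 30 mice, in equal numbers sham, TNBS with vehicle and TNBS with A1007 at 30 mpk. The labels place every mouse in batch 1, and the series text gives the distal colon as the piece taken. The labels give no age, sex, route or time of treatment.

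AhR is a transcription factor that waits in the cytosol, enters the nucleus when a small ligand binds it and, with its partner ARNT, switches on genes such as Cyp1a1. In the gut it acts in epithelium and immune cells and is known for a part in barrier upkeep. TNBS colitis brings neutrophils and monocyte-derived macrophages into the wall, activates fibroblasts that lay down matrix, and strips the epithelium of some mature secretory cells. A comparison between 2 doses of one compound asks which of these programmes differ with the amount given. In whole tissue, fewer cells of a type and less RNA per cell cannot be told apart.

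Genes lower at the higher dose included the macrophage receptors Mrc1 and Cd163, the EGF receptor ligands Areg, Hbegf and Ereg, the stress-responsive transcription factor Atf3 and the matrix genes Lamb1, Dcn and Col6a3. Genes higher at that dose included Atoh1, the factor that sets the secretory lineage of the gut, and the tuft cell genes Trpm5 and Sh2d6. Of 16837 genes tested with edgeR's quasi-likelihood test, 107 had a Benjamini-Hochberg adjusted p under 0.05 (0.636% of the genes tested). Of these, 83 were lower at 90 mpk (0.493%) and 24 were higher (0.143%). At least 2-fold differences were found in 23 of the 107 genes, 22 of them lower and 1, albumin (Alb), higher. The median log2 fold change over all genes was -0.02. The smallest adjusted p was 0.00276. The split into higher and lower genes depends on the scale of the test. On log2(FPKM + 0.5), where FPKM is a count scaled to library size and exon length, limma called 16 genes, 12 higher and 4 lower. With voom and library weights, limma called 198 genes, 91 higher and 107 lower. All 107 genes kept their direction in each of 34 other settings. These settings reuse the same mice or a part of them, so a kept direction is weak evidence.

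**Figure D1:**
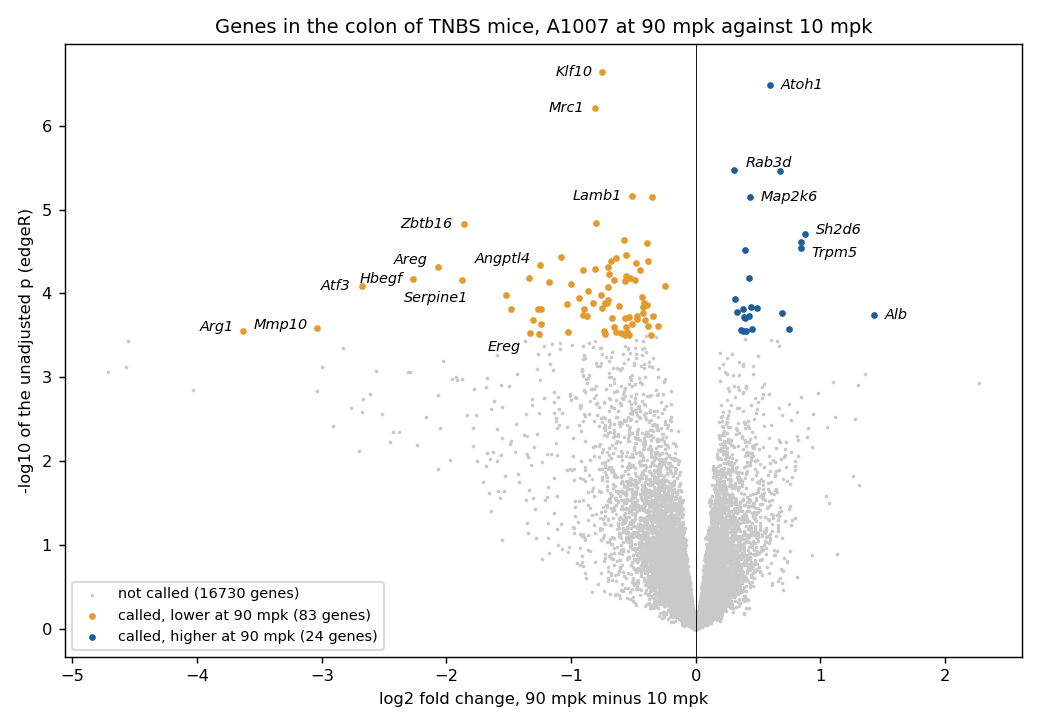
Log2 fold change between doses (x axis, 90 mpk minus 10 mpk) against -log10 of the unadjusted p of edgeR (y axis) for the 16837 genes tested in 10 and 10 mice; orange points are the 83 genes called lower and blue points the 24 called higher at 90 mpk. Falls reach further from 0 than rises, down to -3.63 for Arg1, whereas the highest called rise is 1.43 for Alb.

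The count of genes rests on single mice. Without 10 mpk replicate 1 it was 14, without replicate 6 it was 46, without replicate 3 it was 176 and without replicate 9 it was 169. Leaving out any 1 of the 90 mpk mice lowered it, to 14, 10, 54, 29, 10, 26, 9, 21, 49 and 65 for replicates 1 to 10. Only 8 genes stayed under 0.05 in all 20 fits that leave out 1 mouse: Klf10, Atoh1, Mrc1, Rab3d, Fam189a1, Lamb1, Maf and Map2k6. Every other gene called below lost the call in at least 1 of these fits.

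These 8 genes are described first. Klf10, a transcription factor induced by TGF-beta, had its lowest, median and highest level at 14.3, 18.1 and 24.7 FPKM in the 10 mpk mice and at 8.76, 10.7 and 13.2 FPKM in the 90 mpk mice. Each 90 mpk mouse lay below every 10 mpk mouse. The log2 fold change was -0.75 (SE 0.10, adjusted p = 0.00276), a 1.68-fold fall. Medians were 16.2 FPKM in sham and 18.2 FPKM in vehicle mice, so the 90 mpk group lay below both. Klf10 spans chr15:38291707-38300950 on the minus strand of GRCm39.

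Mrc1 encodes the mannose receptor of tissue macrophages, which takes up glycoproteins. Its level ran from 6.2 over a median of 9.31 to 13.1 FPKM at 10 mpk and from 4.29 over 5.39 to 6.64 FPKM at 90 mpk. The ranges met at their edges, with 9 of 10 mice at 10 mpk above the highest 90 mpk mouse. The fall was 1.75-fold (log2 fold change -0.81, SE 0.12, adjusted p = 0.00342). Sham mice had a median of 4.45 and vehicle mice of 11.98 FPKM. Mrc1 lies at chr2:14234203-14336868 on the plus strand of GRCm39.

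Lamb1, the beta 1 chain of laminins in basement membranes, stood at 13.1, 14.3 and 20.6 FPKM (lowest, median, highest) in 10 mpk mice and at 8.23, 11.1 and 12.6 FPKM in 90 mpk mice. The groups did not overlap, and 10 mpk replicate 1 was the highest by a wide gap. The log2 fold change was -0.51 (SE 0.09, adjusted p = 0.0148). Maf, a transcription factor of macrophages and lymphocytes, fell less, from a median of 5.67 to 4.51 FPKM (log2 fold change -0.35, SE 0.06, adjusted p = 0.0148). Its groups overlapped through 1 mouse, 10 mpk replicate 5, at 4.34 FPKM.

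Atoh1 encodes the transcription factor on which goblet, enteroendocrine and Paneth cells depend. The 10 mpk mice ran from 19.6 over a median of 24.0 to 33.3 FPKM, and the 90 mpk mice from 34.7 over 39.5 to 45.6 FPKM. All 90 mpk mice were above all 10 mpk mice. The rise was 1.51-fold (log2 fold change 0.60, SE 0.08, adjusted p = 0.00276). Median levels were 42.2 FPKM in sham, 26.4 FPKM in vehicle and 28.3 FPKM in 30 mpk mice. Only the 90 mpk median came near the sham level among the 4 TNBS groups. The gene lies at chr6:64706109-64708229 on the plus strand of GRCm39.

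The promoter of Atoh1 is shown because it belongs to the gene with the clearest rise, beside that of Cyp1a1, the textbook target of AhR. Both sequences are from RefSeq on GRCm38.p6, a different build from that of the gene coordinates above, and run 5′ to 3′ from 250 bases before to 50 bases after the gene start. They are the plus strand of chr6:64728875-64729174 and of chr9:57697363-57697662. Capitals mark GCGTG, the core to which AhR and ARNT bind, or its reverse complement CACGC.
Atoh1: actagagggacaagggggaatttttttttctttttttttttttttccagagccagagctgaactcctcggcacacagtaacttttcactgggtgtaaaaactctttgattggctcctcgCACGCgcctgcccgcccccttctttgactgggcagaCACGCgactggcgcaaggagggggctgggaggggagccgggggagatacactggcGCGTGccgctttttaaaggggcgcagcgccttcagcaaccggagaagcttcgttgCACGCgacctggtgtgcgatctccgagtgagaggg
Cyp1a1: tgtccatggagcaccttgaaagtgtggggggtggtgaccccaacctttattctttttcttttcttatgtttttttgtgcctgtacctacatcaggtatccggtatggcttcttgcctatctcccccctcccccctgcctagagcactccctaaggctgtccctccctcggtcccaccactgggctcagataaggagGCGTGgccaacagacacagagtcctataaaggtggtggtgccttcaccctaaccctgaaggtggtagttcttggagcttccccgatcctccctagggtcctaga
The core was matched 4 times in the Atoh1 promoter and 1 time in that of Cyp1a1, with no match overlapping another. Letters alone say little here, since 32.5% of 27025 RefSeq promoters of this length hold the core on either strand. Of the 107 genes called, 75 had a promoter in the table. The core stood in 19 of 55 promoters of lower genes (34.5%) and in 5 of 20 promoters of higher genes (25%). A match is a description of these letters and not a binding site.

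The remaining genes of the set of 8 rose. Rab3d, a small GTPase on secretory granules, moved from 34.9, 39.2 and 41.5 FPKM (lowest, median, highest) to 43.4, 49.1 and 54.0 FPKM, a log2 fold change of 0.31 (SE 0.05, adjusted p = 0.0118). Map2k6, the kinase that activates p38 MAP kinases, went from 4.35, 5.65 and 6.49 FPKM to 6.87, 7.75 and 8.58 FPKM (log2 fold change 0.43, SE 0.07, adjusted p = 0.0148). Fam189a1 had a median of 0.865 FPKM at 10 mpk and 1.48 FPKM at 90 mpk (log2 fold change 0.68, SE 0.11, adjusted p = 0.0118). None of these 3 genes overlapped between the groups. Over all genes tested, CPM (counts scaled to library size) did not overlap in 6 lower genes (0.0356%) and 6 higher genes (0.0356%).

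**Figure D2:**
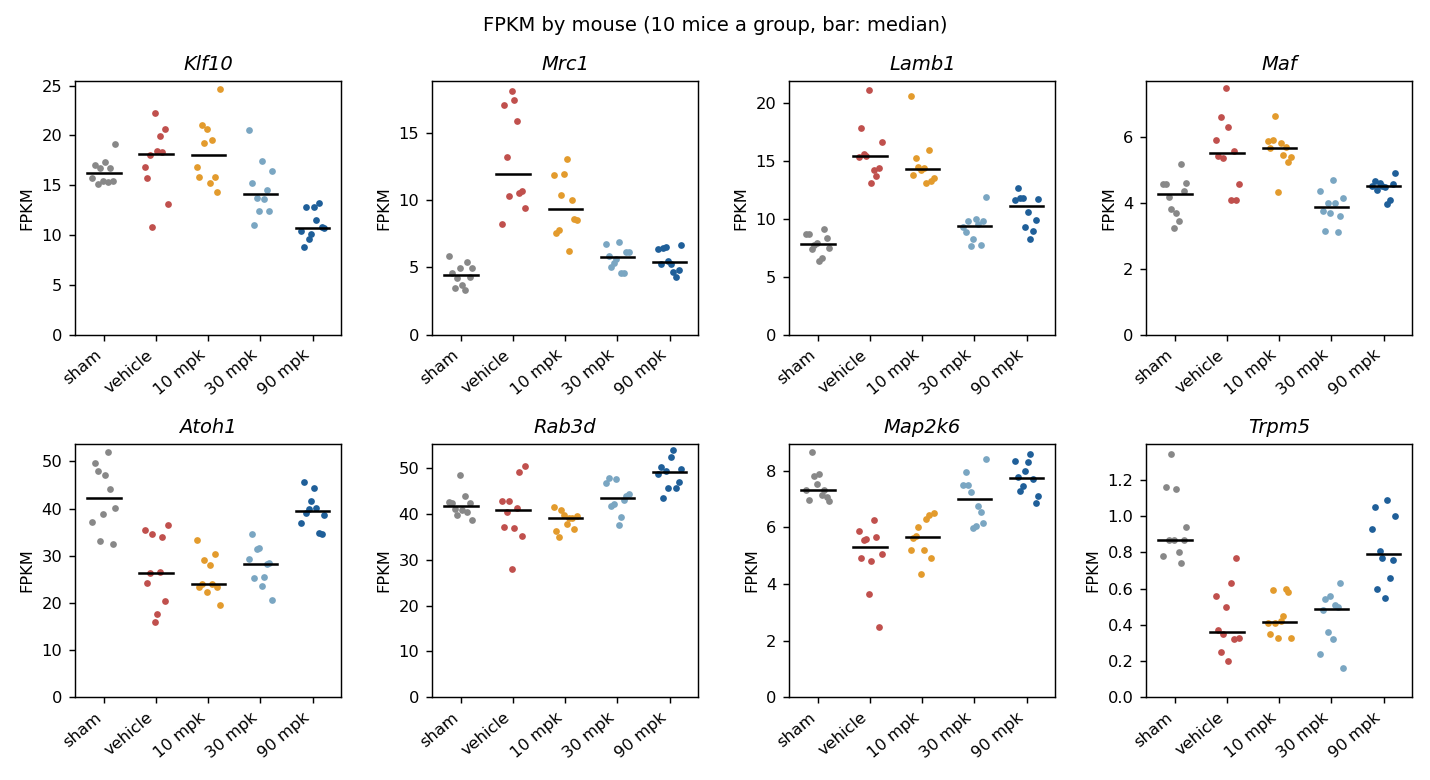
FPKM (y axis, linear from 0) of each of 10 mice in the sham, vehicle, 10, 30 and 90 mpk groups (x axis), with a bar at the median, for 4 genes that fell (top) and 4 that rose (bottom) from 10 to 90 mpk. Klf10 and Lamb1 at 90 mpk lie below all 10 mpk mice, and Atoh1, Rab3d and Map2k6 above them; Trpm5 overlaps.

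Tuft cells are rare chemosensory cells that answer to succinate and make IL-25. Of 5 tested tuft cell genes on a list of 6, 2 rose, 0 fell and the median log2 fold change was 0.84. DESeq2 and voom each called 3 higher and the rank-sum test 1. The rank-sum test called Sh2d6 (adjusted p = 0.029) and not Trpm5 (adjusted p = 0.061). Trpm5, the cation channel of taste and tuft cells, had 0.33, 0.415 and 0.60 FPKM (lowest, median, highest) at 10 mpk and 0.55, 0.79 and 1.09 FPKM at 90 mpk. Its log2 fold change was 0.84 (SE 0.16, adjusted p = 0.0303), with 8 of 10 mice at 90 mpk above the highest 10 mpk mouse. Sh2d6, an adaptor gene of tuft cells, changed by 0.88 (adjusted p = 0.0296) and Rgs13, a regulator of G-protein signalling also found in tuft cells, by 0.84 (adjusted p = 0.0312).

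Of the tested tuft cell genes on that list, 3 did not pass in edgeR and are named after their values were seen. Pou2f3, the defining transcription factor of tuft cells, stood at a log2 fold change of 0.94 (adjusted p = 0.118), with medians of 0.235 and 0.455 FPKM. Avil, a villin relative, was at 0.25 and Dclk1, a kinase also made by neurons, at -0.06. Trpm5 medians in the other groups were 0.87 FPKM in sham, 0.36 FPKM in vehicle and 0.49 FPKM in 30 mpk mice. The 90 mpk mice were thus close to sham and the other 3 TNBS groups lay lower.

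Among goblet cell genes, Atoh1 was the single call in 14 tested, and the median log2 fold change was 0.12. Muc2, the gel-forming mucin of the colon, had medians of 660.7 FPKM at 10 mpk and 847.3 FPKM at 90 mpk, with ranges of 352 to 1352 and 720 to 973 FPKM. Its log2 fold change of 0.18 had an interval from -0.18 to 0.55. Clca1, a mucus-processing protease, was at 0.66 (interval -0.06 to 1.38, adjusted p = 0.469). Spdef, a goblet cell transcription factor downstream of Atoh1, was at -0.12 (interval -0.46 to 0.21). A change as large as that of Atoh1 lies inside the interval of Clca1 and outside those of Muc2 and Spdef. These 3 genes are named after their values were seen. Enteroendocrine genes had a median log2 fold change of -0.05, with 0 of 10 at an unadjusted p under 0.05. None was called by edgeR, DESeq2, voom or the rank-sum test.

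Other genes were also called higher. Creb3l4, a transcription factor held in the endoplasmic reticulum, went from a median of 21.6 to 31.4 FPKM (log2 fold change 0.44, adjusted p = 0.0393). Klk1, tissue kallikrein, rose from 896.4 to 1210.0 FPKM in the median (0.42, adjusted p = 0.041). Slc25a35, a mitochondrial carrier, changed by 0.40 (adjusted p = 0.0312) and its 90 mpk mice, at 11.1 to 11.9 FPKM, all exceeded the highest 10 mpk mouse at 10.7 FPKM. Rasd1 and Rasd2, small Ras-like GTPases, rose by 0.42 and 0.69, Rassf6 by 0.40, Zfp692 by 0.49 and Fam222a by 0.41. Picked after their values were seen, Chst4, a sulfotransferase that decorates mucins, rose by 0.31 (adjusted p = 0.0393) and Il17re, an epithelial receptor subunit for IL-17C, by 0.38 (adjusted p = 0.0393). Alb, the serum protein of hepatocytes, had medians of 0.70 and 1.34 FPKM and is likewise named after its value was seen.

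Of 21 tested monocyte and macrophage genes 3 fell, 0 rose and the median log2 fold change was -0.53. All 21 had a negative log2 fold change, and 18 of 21 had an unadjusted p under 0.05, against 7.73% of all genes lower at that level. Beside Mrc1 these were Cd163, the scavenger receptor for haemoglobin, at -1.30 (SE 0.29, adjusted p = 0.042), and Arg1, the arginase of alternatively activated macrophages, at -3.63 (SE 0.83, adjusted p = 0.0486). Cd163 ran from 1.67 over 2.94 to 11.4 FPKM at 10 mpk and from 1.07 over 1.57 to 2.05 FPKM at 90 mpk. DESeq2 called 6 of the 21 lower, voom 3 and the rank-sum test 1.

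Arg1 was high in 4 mice. In 10 mpk mice it stood at 73.8 FPKM in replicate 5, 26.6 in replicate 6, 25.2 in replicate 8 and 23.9 in replicate 1. The other 6 mice lay between 0.65 and 3.66 FPKM. The 90 mpk mice lay between 0.71 and 3 FPKM with a median of 1.07 FPKM, inside the range of those 6. Without replicate 5 the log2 fold change of Arg1 was -2.88. Its adjusted p over all 20 mice was 0.35 with voom and 0.54 with the rank-sum test.

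Genes of general macrophage identity did not pass and are named after their values were seen. Csf1r, the receptor for macrophage growth factor, was at -0.35 (adjusted p = 0.134) and C1qb, a complement subunit made by resident macrophages, at -0.53 (adjusted p = 0.151). Lyz2, lysozyme, was at -0.12 (adjusted p = 0.815). The summed level of the list ran from 550.4 to 1352 CPM at 10 mpk and from 507.6 to 941.8 CPM at 90 mpk. Fcgr3, a low-affinity receptor for IgG, fell by 0.80 on the log2 scale (SE 0.15, adjusted p = 0.0252). Hmox1, a haem oxygenase, fell by 1.08 (SE 0.21, adjusted p = 0.0312). It belongs to the list of drug metabolism and NRF2 genes and not to the macrophage list. There it was the single call of 24 tested, with 12 positive, 12 negative and a median log2 fold change of 0.002. Pf4, a chemokine of platelets and macrophages, fell by 1.26 (adjusted p = 0.0393). Others of macrophage and myeloid expression that were called, also named after their values were seen, were Fcgr2b (-0.65), Stab1 (-0.56), F13a1 (-1.03), Ms4a6d (-0.90) and C5ar1 (-1.02). Igf1 (-0.90) and Lrp1 (-0.43), which are not particular to these cells, were called as well and likewise named after their values were seen.

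Of 9 tested neutrophil genes of a list of 16, 0 passed in edgeR, while all 9 were lower with an unadjusted p under 0.05 and the median log2 fold change was -1.68. Among all genes tested the share lower at that level was 7.73%. S100a9, a calprotectin subunit, was at -4.03 (SE 1.09, adjusted p = 0.0901). In 10 mpk mice it reached 347.6 FPKM in replicate 5 and 243.6 FPKM in replicate 8, and 31.1 FPKM or less in the other 8. In 90 mpk mice it ran from 0.38 over 1.65 to 14.7 FPKM. The highest 90 mpk mice thus lay above most 10 mpk mice. DESeq2 called 5 of the 9 lower, and voom and the rank-sum test called 0. Cytokines had 0 of 7 called, 5 lower at an unadjusted p under 0.05 and a median of -0.87; DESeq2 called 4 lower, voom 1 and the rank-sum test 0. Il1b had a median of 6.28 FPKM at 10 mpk and 1.85 FPKM at 90 mpk, with 93.0 FPKM in 10 mpk replicate 8 (log2 fold change -2.56, adjusted p = 0.073). Il11, a cytokine that drives fibroblasts, named after its values were seen, reached 11.3 FPKM in replicate 5 and 7.45 FPKM in replicate 1 and was 0.78 FPKM or less in the others.

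Ligands of the EGF receptor were among the largest falls. Areg, Hbegf and Ereg encode amphiregulin, heparin-binding EGF-like growth factor and epiregulin, which signal for epithelial repair. Areg had 2.93, 15.4 and 50.03 FPKM (lowest, median, highest) at 10 mpk and 2.68, 4.48 and 9.24 FPKM at 90 mpk. The groups overlapped, with 8 of 10 mice at 10 mpk above the highest 90 mpk mouse. The fall was 4.18-fold (log2 fold change -2.06, SE 0.40, adjusted p = 0.0312).

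Hbegf ran from 1.39 over 5.77 to 20.3 FPKM at 10 mpk and from 1.11 over 1.57 to 3.25 FPKM at 90 mpk, a log2 fold change of -2.27 (SE 0.45, adjusted p = 0.0312). Ereg stood at 3.88, 5.11 and 22.2 FPKM and at 2.02, 3.22 and 4.47 FPKM, a log2 fold change of -1.33 (SE 0.31, adjusted p = 0.0487). Errfi1, the feedback inhibitor of that receptor, fell by 0.66 (adjusted p = 0.0479) and was picked after its value was seen. Among regenerative epithelium genes, 4 of 10 tested genes fell and 0 rose, with a median of -0.87. The fourth was Msln, a marker of mesothelium and of regenerating epithelium, at -1.52 (adjusted p = 0.0386). Clu and Anxa1, also of that list and named after their values were seen, were at -0.41 each without a call, and Ly6a was at -0.16. DESeq2 called 5 of the 10 lower, voom 2 and the rank-sum test 1. The adjusted p of Areg was 0.058 with voom and 0.118 with the rank-sum test. That of Hbegf was 0.067 and 0.13, and that of Ereg 0.037 and 0.029.

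Levels in the other groups set the 3 ligands apart. Areg had medians of 8.25 FPKM in sham, 10.5 FPKM in vehicle and 21.1 FPKM in 30 mpk mice, and Hbegf of 2.09, 2.19 and 11.3 FPKM. Both were thus highest at 30 mpk and lower at 90 mpk than in sham. Ereg, in contrast, had medians of 3.48 FPKM in sham, 15 FPKM in vehicle and 4.37 FPKM in 30 mpk mice. In fits of 30 against 10 mpk, which share the 10 mpk mice, Areg and Hbegf stood at 0.40 and 0.86 (adjusted p = 0.64 and 0.34). In fits of 90 against 30 mpk, which share the 90 mpk mice, they stood at -2.47 and -3.13 (adjusted p = 0.00025 and 9.9e-05).

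**Figure D3:**
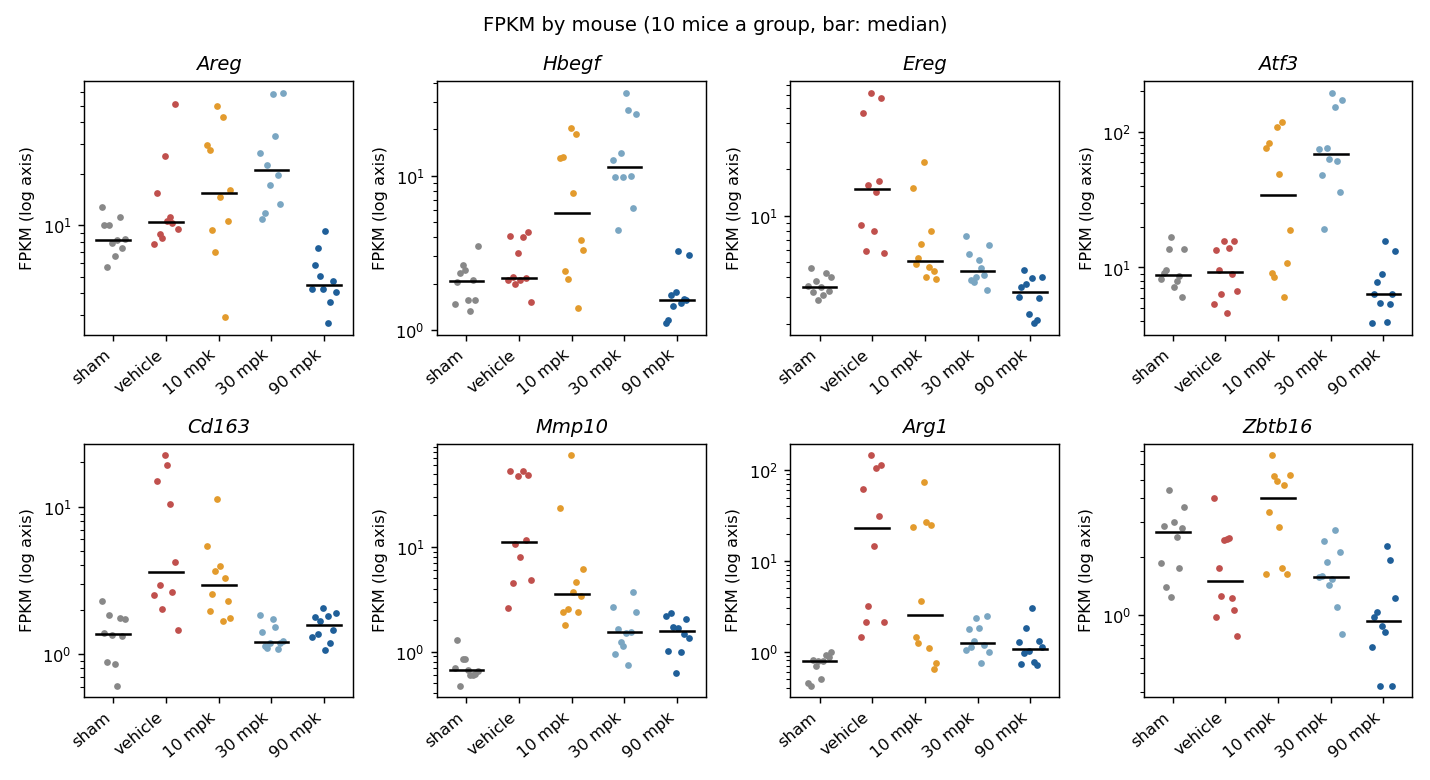
FPKM (y axis, log scale) of each of 10 mice in the 5 groups (x axis), with a bar at the median, for 8 of the genes with the largest falls from 10 to 90 mpk. Areg, Hbegf and Atf3 are highest at 30 mpk, whereas Ereg, Cd163, Mmp10 and Arg1 are highest in vehicle mice.

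Immediate early genes answer within minutes to growth factors, stress and handling. Of 22 tested, 1 fell, 0 rose and the median log2 fold change was -0.70, and 20 of 22 were lower with an unadjusted p under 0.05. The share of all genes lower at that level was 7.73%. DESeq2 called 11 lower, voom 2 and the rank-sum test 0. The call was Atf3, a stress-induced transcription factor, at -2.68 (SE 0.54, adjusted p = 0.0323). Atf3 ran from 6.09 over 34.0 to 119 FPKM at 10 mpk and from 3.88 over 6.37 to 15.8 FPKM at 90 mpk. Its levels at 10 mpk split into 5 mice at 49.0 FPKM or more and 5 at 19.1 FPKM or less. The median was 69.2 FPKM at 30 mpk, 8.82 FPKM in sham and 9.24 FPKM in vehicle mice.

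The same 10 mpk mice were high across the list. Replicates 1 and 7 were each among the 4 highest of their group in 19 of the 22 genes, and replicates 2 and 5 in 14 each. Fos, Nr4a1 and Klf6 are named after their values were seen. Fos had 41.1, 109.8 and 268 FPKM (lowest, median, highest) at 10 mpk and 35.5, 62.5 and 167 FPKM at 90 mpk, a log2 fold change of -1.01 (adjusted p = 0.239). Nr4a1, a nuclear receptor of the same kind, was at -1.18 (adjusted p = 0.0615) and Klf6 at -0.58 (adjusted p = 0.0615). Time from death to freezing is not given in the sources used here, and its part in these values was not tested. Further regulators called lower, all picked after their values were seen, were Maff (-0.87), Sik1 (-0.71), Rnd1 (-0.94), Trib1 (-0.56), Ifrd1 (-0.57), Klf11 (-0.56), Irs2 (-0.51) and Pim1 (-0.55). Nfkbiz, an inducible partner of NF-kappaB, fell by 0.64 (adjusted p = 0.0312) as the single call of 14 genes on that list, whose median was -0.17. DESeq2 called 4 of the 14 lower, voom 1 and the rank-sum test 0.

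Promoters of 2 of these stimulus-responsive genes are printed since both genes fell. Both are from RefSeq on GRCm38.p6, the plus strand of chr5:91139349-91139648 for Areg and the minus strand of chr1:191183284-191183583 for Atf3. Capitals mark TGACGTCA, the full site of CREB and ATF proteins, in Areg and GCGTG or CACGC in Atf3.
Areg: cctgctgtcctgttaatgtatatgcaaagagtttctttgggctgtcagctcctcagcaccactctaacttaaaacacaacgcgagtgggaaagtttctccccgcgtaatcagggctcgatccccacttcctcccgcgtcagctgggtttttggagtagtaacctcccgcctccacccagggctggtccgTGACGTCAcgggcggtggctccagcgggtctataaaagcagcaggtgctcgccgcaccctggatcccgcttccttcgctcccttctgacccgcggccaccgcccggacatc
Atf3: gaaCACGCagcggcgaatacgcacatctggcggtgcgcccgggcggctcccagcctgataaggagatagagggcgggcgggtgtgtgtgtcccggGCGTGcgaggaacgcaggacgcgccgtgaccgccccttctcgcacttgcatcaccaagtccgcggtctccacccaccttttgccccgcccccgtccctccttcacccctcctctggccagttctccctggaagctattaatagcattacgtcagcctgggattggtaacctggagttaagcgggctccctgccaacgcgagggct
TGACGTCA, which reads the same on both strands, was matched 1 time in Areg and in no other of 55 promoters of lower genes, and it stands in 1.88% of all RefSeq promoters of this length. It overlapped no GCGTG. Atf3 held GCGTG 2 times. TGANTCA, the AP-1 site, where N is any base, stood in 7 of 55 promoters of lower genes (12.7%), in 2 of 20 of higher genes (10%) and in 7.93% of all.

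Among fibrosis mediators and matrix proteins 5 of 30 fell, 0 rose and the median was -0.60. All 30 had a negative log2 fold change, and 24 had an unadjusted p under 0.05, against 7.73% of all genes lower at that level. DESeq2 called 17 lower, voom 4 and the rank-sum test 3. Dcn, decorin, a proteoglycan on collagen fibrils, had 90.1, 111.8 and 165 FPKM (lowest, median, highest) at 10 mpk and 54.0, 73.0 and 96.0 FPKM at 90 mpk. The log2 fold change was -0.58 (SE 0.11, adjusted p = 0.0303). Inhba, a subunit of activin, fell by 1.34 (adjusted p = 0.0312) and Pdpn, podoplanin of activated fibroblasts and lymphatic vessels, by 0.70 (adjusted p = 0.0323).

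Pdgfra, a receptor of fibroblasts on the same list, fell by 0.47 (adjusted p = 0.042). Plau, the urokinase-type plasminogen activator, fell by 0.60 (adjusted p = 0.0489). Both are named after their values were seen.

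Of 18 tested collagen chains 1 fell, 0 rose and the median log2 fold change was -0.59, with all 18 negative and 17 at an unadjusted p under 0.05. Lower at that level were 7.73% of all genes tested. The log2 fold changes ran from -1.01 to -0.30. DESeq2 called 12 of them lower, voom 2 and the rank-sum test 1. Col6a3, a chain of the microfibrillar collagen VI, fell from a median of 14.1 to 10.3 FPKM (log2 fold change -0.73, SE 0.16, adjusted p = 0.0393). Its 10 mpk mice ran from 11.5 to 30.2 FPKM, the latter in replicate 1, and its 90 mpk mice from 6.41 to 12.4 FPKM. Col1a1, the main fibrillar collagen, named after its value was seen, was at -1.01 (adjusted p = 0.0941), with medians of 76.2 and 57.3 FPKM and 285.8 FPKM in the highest 10 mpk mouse. Sham and vehicle medians of Col1a1 were 20.1 and 114.2 FPKM, so both doses lay between them.

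Of 19 matrix proteases and inhibitors 4 fell and 0 rose, with a median of -0.80. DESeq2 called 13 lower, voom 3 and the rank-sum test 2. Mmp10, a stromelysin of wound edges, was at -3.04 (SE 0.69, adjusted p = 0.0486). It reached 75.1 FPKM in 10 mpk replicate 5 and 23.6 FPKM in replicate 1 and lay between 1.81 and 6.16 FPKM in the other 8, against 0.62 to 2.34 FPKM at 90 mpk. Without replicate 5 its log2 fold change was -1.88. The falls of Mmp2, a gelatinase of fibroblasts, at -0.57, Adamts2, the protease that trims procollagen, at -0.64, and Adamts9 at -0.80 also passed (adjusted p = 0.049, 0.0487 and 0.0312). For Mmp2 the medians were 27.4 and 20.3 FPKM.

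Several single genes of other programmes also fell. Zbtb16, a transcription factor known as PLZF, ran from 1.62 over 4.03 to 6.67 FPKM at 10 mpk and from 0.43 over 0.925 to 2.28 FPKM at 90 mpk (log2 fold change -1.86, SE 0.33, adjusted p = 0.0252). Its highest 10 mpk mice were replicates 3, 10 and 4, which are not those highest for Arg1 and Mmp10. Angptl4, an inhibitor of lipoprotein lipase and a target of PPAR receptors, fell by 1.25 (SE 0.25, adjusted p = 0.0312), the single call among 13 genes of that list. Ptges, the inducible prostaglandin E synthase, fell by 0.71 (adjusted p = 0.0312), Nfil3, a repressor of clock-controlled genes, by 1.24 (adjusted p = 0.0461), and Dhrs9, a retinol dehydrogenase, by 1.26 (adjusted p = 0.049). Rpl7a-ps5 and Rps27rt, a pseudogene and a retrogene of ribosomal proteins, also passed, but their reads may be shared with the parent genes and these 2 calls are uncertain.

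**Figure D4:**
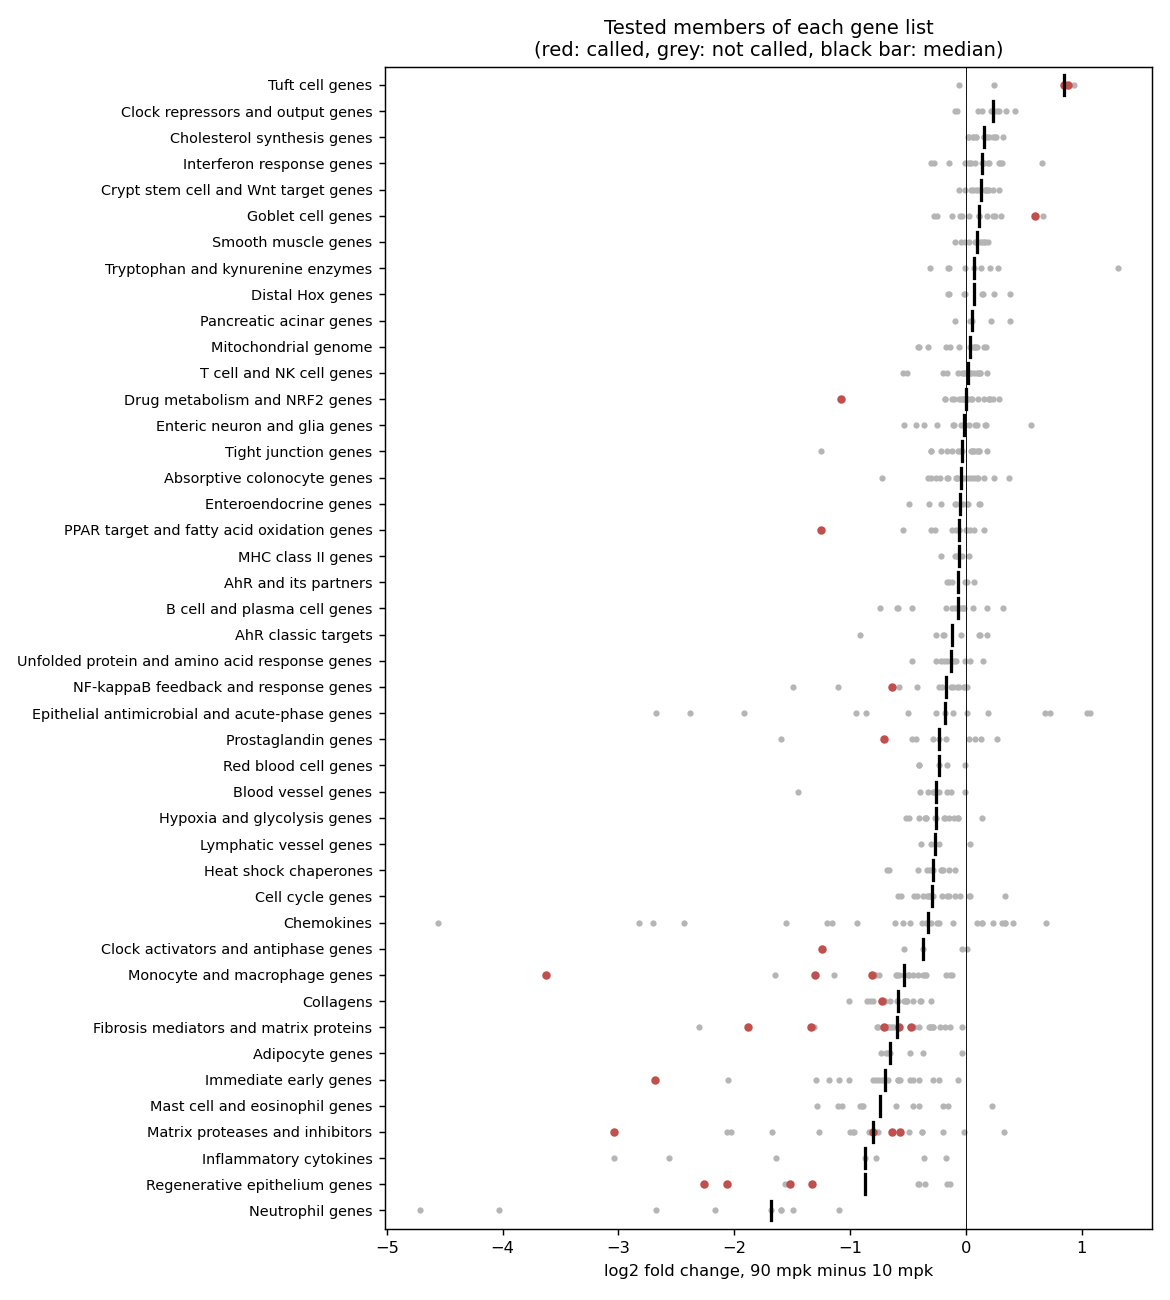
Log2 fold change from 10 to 90 mpk (x axis) of each tested member of the lists with at least 5 tested genes (y axis), with red for genes called, grey for the others and a bar at the median. Neutrophil genes have the lowest median at -1.68 with no call, and tuft cell genes the highest at 0.84 with 2 calls.

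Targets of AhR did not pass. Of 10 classic targets 8 were tested and 0 called by edgeR, DESeq2, voom or the rank-sum test. Their median log2 fold change was -0.12, and 1 had an unadjusted p under 0.05. Cyp1a1, a monooxygenase and the usual readout of the receptor, ran from 0.07 over 0.20 to 0.52 FPKM at 10 mpk and from 0.11 over 0.275 to 0.43 FPKM at 90 mpk (log2 fold change 0.18, interval -0.46 to 0.83). These levels overlap those of sham mice, at 0.04 to 0.51 FPKM. Cyp1b1, a monooxygenase of stroma, was at -0.92 (interval -1.52 to -0.32, adjusted p = 0.144), with medians of 0.345 and 0.165 FPKM. Its median was 0.125 FPKM in sham mice. In vehicle mice, which had no A1007, it was 0.715 FPKM, with a highest level of 14.51 FPKM. Tiparp and Ahrr, which both damp AhR, were at -0.19 and -0.20, Nqo1, a quinone reductase, at -0.05, Cyp2s1 at 0.12, Aldh3a1 at -0.26 and Ugt1a6a at 0.12. Ugt1a6a shares exons with other Ugt1a genes, so its value is uncertain.

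Among the lists with no edgeR call and a median near 0 were those of absorptive colonocytes (0 of 21 called, median -0.04), T and NK cells (0 of 17, median 0.02), B and plasma cells (0 of 14, median -0.07) and smooth muscle (0 of 12, median 0.09). At an unadjusted p under 0.05 there was 1 absorptive gene, higher, and 0 in the other 3 lists. DESeq2 and the rank-sum test called 0 in all 4 lists, and voom called 1 absorptive gene higher. Tight junction genes had 0 of 17 called, 1 higher and 2 lower at an unadjusted p under 0.05, and a median of -0.03; DESeq2 called 1 lower, voom and the rank-sum test 0. Cldn4, a claudin named after its value was seen, missed the threshold narrowly (log2 fold change -1.25, adjusted p = 0.0502), with medians of 20.8 FPKM at 10 mpk and 10.1 FPKM at 90 mpk.

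Against the other groups, the 90 mpk mean of 75 of the 83 lower genes was closer to the sham mean than the 10 mpk mean was, and in 25 of the 83 it lay below sham. For 74 of the 83 the vehicle mean was above the sham mean. Of the 24 higher genes, 16 were closer to sham at 90 mpk and 18 lay above it. The 30 mpk mean lay between those of 10 and 90 mpk in 42 of the 83 lower genes, past 90 mpk in 33 and past 10 mpk in 8. Among the 24 higher genes it lay between in 21, past 90 mpk in 2 and past 10 mpk in 1. These counts describe means and carry no test.

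Separate fits of neighbouring doses share mice with this one. Between 10 and 30 mpk, 423 of 16764 genes were called (2.52%), 80 higher and 343 lower at 30 mpk. Between 30 and 90 mpk, 3154 of 16718 genes were called (18.9%), 1271 higher and 1883 lower at 90 mpk. Mrc1 stood at -0.72 from 10 to 30 mpk (adjusted p = 0.0051) and -0.09 from 30 to 90 mpk (adjusted p = 0.52), and Lamb1 at -0.65 and 0.14 (adjusted p = 0.001 and 0.23). Klf10 stood at -0.29 and -0.46 (adjusted p = 0.17 and 0.0028), and Atoh1 at 0.14 and 0.45 (adjusted p = 0.44 and 0.00054). For Atf3 the values were 0.91 and -3.60 (adjusted p = 0.38 and 9.9e-05).

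Mice given 10 mpk differed more among themselves than mice given 90 mpk. The SD of log2 CPM between mice had a median over genes of 0.329 at 10 mpk and 0.194 at 90 mpk. It was larger at 10 mpk in 14520 of 16837 genes (86.2%) and in 91 of the 107 genes called. The test assumes 1 spread for both groups, which bears on every gene above whose range was wider at 10 mpk. The map of lists by mouse shows the mean level of each list in each mouse.

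**Figure D5:**
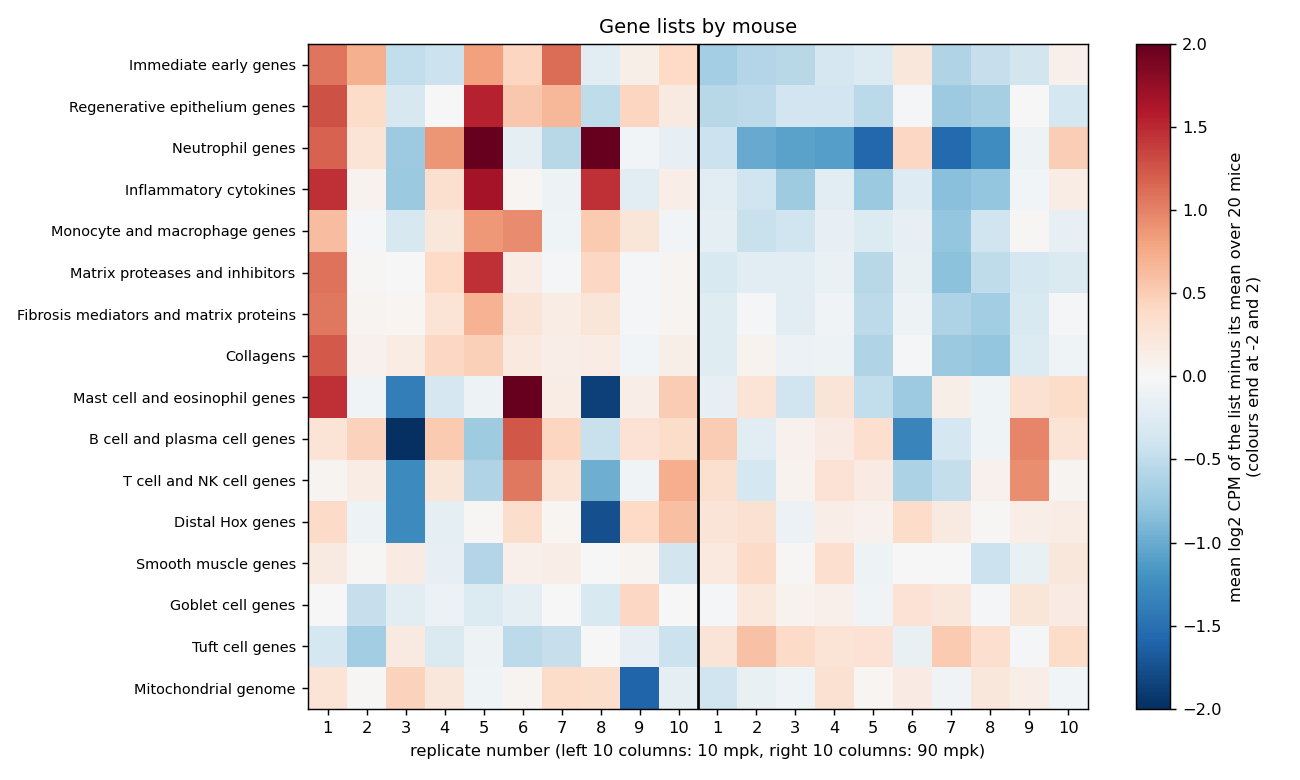
Mean log2 CPM of 16 gene lists (y axis) in each mouse (x axis, 10 mpk replicates left and 90 mpk replicates right) as a difference from the list's mean over the 20 mice; red is higher and blue lower. Replicates 1 and 5 at 10 mpk are red across inflammatory and matrix lists, replicates 3 and 8 are blue for distal Hox genes (-1.27 and -1.75), and the 90 mpk mice are paler.

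Library totals ran from 14497205 to 19149227 counts at 10 mpk and from 14373337 to 20446967 counts at 90 mpk. Markers of colon epithelium were present in both groups. Epcam had medians of 773.8 and 767.3 FPKM and Car1, a carbonic anhydrase of the large bowel, of 1597 and 1765 FPKM. Lactase (Lct), of the small bowel, had medians of 0.02 and 0.015 FPKM. Its highest level was 0.03 FPKM at 10 mpk and 0.36 FPKM at 90 mpk. Fabp1, named after its values were seen, reached 13.96 FPKM over a median of 0.27 FPKM at 90 mpk. At 10 mpk its highest level was 0.75 FPKM. Some libraries stood apart. Mitochondrial genes took 2.61% of counts in 10 mpk replicate 9, against up to 10.3% in that group and 6.99 to 8.66% at 90 mpk. Xist was at 0.05 FPKM in 10 mpk replicate 6 and at 18.3 FPKM or more in the others of that group. Without that library 46 genes were called, 9 higher and 37 lower. Pancreatic acinar genes summed to 1196 CPM in 10 mpk replicate 7, to 808.1 CPM in 90 mpk replicate 2 and to 577.1 CPM in 90 mpk replicate 4. Without these 3 libraries 6 genes were called, 1 higher and 5 lower. Distal Hox genes, which mark position along the gut, were lowest in 10 mpk replicates 3 and 8, and without both 274 genes were called, 70 higher and 204 lower. How far these features enter the differences above was not tested.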

How the data were processed

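Poly(A) RNA from the colon of 50 mice was sequenced, and 20 of them are compared here. The authors deposited 1 table of raw counts per gene with matching FPKM values, exon lengths and GRCm39 coordinates, per the file headers. The submitters' processing notes list HTSeq 0.6.1, HISAT2 2.2.1, DESeq2, cutadapt 1.9.1 and the build GRCm39. The sources used here give neither their roles nor the strand setting nor the handling of shared reads. The deposited FPKM values were checked against counts, exon length and library totals, and 99.997% of those with at least 500 counts lay within 1%. The table holds 56691 genes, of which 2639 have no symbol and 959 share one. The p-values measure the spread between mice, with 1 library each. No 2 libraries of a group agreed within sampling noise. Chi-square per degree of freedom was at least 9.49 in each pair, over genes with at least 1000 counts summed over the 20 mice.

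Counts were tested with edgeR 4.0.16 in R 4.3.3 (glmQLFit and glmQLFTest, robust, TMM scaling, filterByExpr with a count minimum of 10, two-sided) on the 20 mice. A gene was called, and is said to have risen or fallen, at a Benjamini-Hochberg adjusted p under 0.05; intervals around a log2 fold change are at 95%. The script was tested on simulated data. Of 647 genes in 46 lists 646 were in the table and 584 were tested. The members compared and the lists were chosen with earlier results of these data known, and no list is given a test of its own. Named genes are the tested AhR targets, the 12 largest rises and falls at a mean of at least 2 FPKM, the 10 smallest p-values, up to 4 called members of each list, and up to 2 of the highest FPKM where none was called; others are said to be named after their values were seen. Of the genes this rule names, 1 is not reported here. Alternatives were DESeq2 1.42.0, limma 3.58.1 with voom library weights or on log2 FPKM, a rank-sum test, other scalings, no filter, 40 mice in 1 fit, a replicate block and libraries left out.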

Additional observations from a re-analysis of the deposited data

Results flagged for a closer look

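Among 230 sets of 10 mice (115 named genes in both dose groups), 25 had a highest or lowest mouse whose gap to its neighbour, on the log2 CPM scale, passed the 95% critical value of Dixon's gap-to-range ratio. Chance flags about 1 in 20 sets. Values below are FPKM.

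In the 10 mpk group, replicate 1 was the highest for Lamb1 at 20.57, Col6a3 at 30.19 (next 16.54), Dcn at 164.9 (next 125.9) and Adamts2 at 7.71. Replicate 9 was the highest for Ptges3 at 105.1, Cldn7 at 430.5, Hsp90ab1 at 932.1 and Hspa5 at 379.3, and the lowest for mt-Co1 at 8717 (next 21870) and mt-Cytb at 2468 (next 8368). Replicate 5 was the lowest for Maf at 4.34 and for Dbp, a clock output gene, at 5.3 (next 16.28). Replicate 10 was the lowest for Sh2d6 at 0.56 and Guca2a at 361.0. Replicate 8 was the highest for Il1b at 93.03 (next 9.29). Replicate 6 was the highest for Gzma at 24.56 (next 3.61) and the lowest for Xist at 0.05 (next 18.32).

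In the 90 mpk group, replicate 6 was the lowest for Igha at 46.44 (next 305.4), Jchain at 30.18 (next 201.8) and Rgs13 at 2.29, and the highest for Il18 at 67.11. Replicate 7 was the highest for Rasd2 at 10.89 and Hsp90ab1 at 700.7. Replicate 9 was the highest for H2-Eb1 at 133.8, and replicate 8 the lowest for Hmgcs1 at 46.81.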

How the results depend on the processing

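All 107 genes called kept their direction in 34 other settings, which reuse the same mice, but the number called moved widely. It was 107 (24 higher, 83 lower) as reported, 108 (24 and 84) with RLE scaling and 80 (22 and 58) with upper-quartile scaling. It was 41 (11 and 30) with no filter, 19 (6 and 13) with all 40 TNBS mice in 1 fit, 434 with DESeq2 (90 higher, the rest lower), 198 (91 and 107) with voom library weights, 16 (12 and 4) with limma on log2 FPKM at a pseudocount of 0.5 or 0.1, and 47 (15 and 32) with the rank-sum test. Leaving out 1 mouse gave 9 to 176 calls, 4 to 46 higher and 5 to 149 lower. Without the library low in Xist it was 46 (9 and 37), which is the same fit as that without 10 mpk replicate 6. Without the 15 libraries over 100 CPM of acinar genes, which leaves 3 and 2 mice, edgeR called 0 (0 and 0), with 649 genes at an unadjusted p under 0.05; no other tool was run there. Without the 3 libraries over 300 CPM of acinar genes it was 6 (1 and 5), and without 10 mpk replicates 3 and 8 it was 274 (70 and 204); both settings were chosen after seeing the data. The causes were not tested. Over the named genes and these settings, 3240 values kept their side of the threshold, 659 lost the call and 10 gained one. Among values called as reported or in the setting, 0 reversed direction. A change of sign in a gene called in neither was not counted as a reversal.

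The share of genes with the larger SD at 10 mpk was 86.2% as reported, 81.57 to 86.95% with 1 mouse left out, 86.2% with RLE or upper-quartile scaling and 68.4% with no filter; these settings too were chosen after seeing the data.

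Replicate numbers did not pair the mice: same-numbered mice had correlations of -0.21 to 0.33, over 0.1 in 3 of 10 pairs, and 1 mouse correlated best with its own number. With a replicate block, 2 genes were called (0 higher, 2 lower), Klf10 and Mrc1.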

Other observations

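Genes of cholesterol synthesis had a positive log2 fold change in 15 of 15 cases, with a median of 0.16, 1 at an unadjusted p under 0.05 and 0 called by edgeR, DESeq2, voom or the rank-sum test. Clock repressors and output genes had a median of 0.23, with 9 of 11 positive, 3 at an unadjusted p under 0.05 and 0 called by the same 4 tools. Crypt stem cell and Wnt target genes had a median of 0.13, with 10 of 12 positive, 3 at an unadjusted p under 0.05 and likewise 0 called. Interferon response genes had a median of 0.14, with 13 of 17 positive, 1 at an unadjusted p under 0.05 and 0 called. For comparison, 7637 of all 16837 genes tested had a positive log2 fold change, and 4.37% were higher at an unadjusted p under 0.05.

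Heat shock chaperones had negative log2 fold changes in 12 of 12 cases, with a median of -0.29, 6 at an unadjusted p under 0.05 and 0 called by these 4 tools. Among all 16837 genes tested, 9200 had a negative log2 fold change and 7.73% were lower at an unadjusted p under 0.05. Cell cycle genes had a median of -0.30, with 16 of 19 negative, 1 in each direction at an unadjusted p under 0.05 and 0 called. Chemokines had 0 of 27 called by edgeR, with a median of -0.32, 13 lower and 1 higher at an unadjusted p under 0.05; DESeq2 called 6 lower, voom 1 lower and 1 higher, and the rank-sum test 0.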
